A study of Rattus norvegicus with 21 samples.

Results

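Endothelial genes were followed in RNA of cultured rat pancreatic islets at 3 h and 24 h. The genes were chosen by name: 10 symbols of the capillary endothelium were looked up in the deposited count table of 17025 genes, and 9 were measured, Kdr, Flt1, Tek, Tie1, Eng, Cdh5, Esam, Pecam1 and Plvap. Vwf was not analysed here. All 9 passed the filter on low counts, so they are 9 of the 12576 genes tested.

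Islets came from Sprague Dawley rats in 3 separate preparations. Islets of 8 rats were pooled for each preparation and then split over the culture groups, so a library holds whole islets, about 1000 islet equivalents, with every cell type they contain. Glucolipotoxic (GLT) medium had 27 mM glucose and 300 µM palmitate, and control medium had 11 mM glucose and no palmitate. The groups were 24 h GLT with compound D at 300 nM (3 libraries), 3 h GLT with compound D (3), 24 h GLT with compound E at 300 nM (2, from preparations 1 and 2), 3 h GLT with compound E (1, from preparation 2), 24 h GLT (3, condition 4), 2 disputed groups of 3 libraries each, and 3 h control (3, condition 1). No age, sex, structure or target of a compound was given in the labels. Condition 2 is 24 h control in the sample records and 3 h GLT in the deposited sample sheet, and condition 3 is 3 h GLT in the records and 24 h control in the sheet. Those 6 of the 21 libraries are therefore called by their condition number, and both readings are given.

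Capillaries run through the islet and are lined by a thin, fenestrated endothelium. Beta cells secrete vascular endothelial growth factor A, which endothelial cells read through the receptor tyrosine kinases encoded by Kdr (VEGFR-2, the main signalling receptor) and Flt1 (VEGFR-1, which binds the ligand tightly and can act as a trap). Tek encodes the angiopoietin receptor TIE2, Tie1 its partner receptor, and Eng the TGF-beta co-receptor endoglin. Cdh5 (VE-cadherin), Esam and Pecam1 (CD31) encode adhesion molecules of the contacts between endothelial cells, and Plvap encodes the protein of the diaphragms that span endothelial fenestrae and caveolae.

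Depth was 22.3 M to 40.2 M counts in genes per library, and the smallest read count of the 9 genes in a library was 33. Levels are given as CPM, counts scaled to a common library size with TMM factors, and 3 counts correspond to 0.0804 to 0.144 CPM. CPM are not divided by transcript length, so levels are compared between groups and not between genes. Insulin transcripts took 9.32% to 45.9% of counts and the ribosomal precursor Rn45s 0.0333% to 7.88%. In condition 3 of preparation 2, 23.4% of the entries counted by the authors were reads with more than 1 alignment, against 4.92% to 8.51% in the other libraries.

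The clearest comparison, with no disputed library, is 24 h against 3 h of GLT with compound D. 5 of the 9 genes fell past the test (adjusted p under 0.05 over all genes): Tek, Plvap, Flt1, Kdr and Eng. Of all genes tested, 3.05% fell in this comparison. All 9 had negative fitted log2 changes. The median log2 change of the 9 genes was -1.26, against 0.02 over all genes. In whole islets, fewer cells of a type and less RNA per cell cannot be told apart.

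Tek, the angiopoietin receptor gene, changed most. In preparations 1, 2 and 3 it had 2.19, 1.99 and 0.885 CPM at 24 h of GLT with compound D, against 9.92, 9.25 and 10.3 CPM at 3 h. All 3 libraries at 24 h were far below all 3 at 3 h. The fitted level at 24 h was 16.4% of that at 3 h (log2 change -2.60, SE 0.34, adjusted p = 7.32e-04, n = 3 each). Tie1, the partner receptor gene, had 15.3, 19.0 and 3.43 CPM at 24 h and 19.8, 25.0 and 16.6 CPM at 3 h. Its groups overlapped through preparation 2, and the difference did not pass (-0.84, SE 0.37, adjusted p = 0.197).

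The genes of both receptors for vascular endothelial growth factor A fell. Kdr had 16.2, 16.3 and 4.29 CPM at 24 h, against 49.0, 32.6 and 36.3 CPM at 3 h (-1.81, SE 0.37, adjusted p = 0.0116). Flt1 had 7.86, 2.59 and 2.39 CPM at 24 h, against 23.5, 10.4 and 19.3 CPM at 3 h (-2.11, SE 0.56, adjusted p = 0.0377). Neither gene had a 24 h library as high as its lowest 3 h library. The call for Flt1 was lost with library size as the only scaling (adjusted p = 0.102). The endoglin gene Eng had 21, 25.6 and 14.2 CPM at 24 h, against 43.1, 46.8 and 58.2 CPM at 3 h, and fell to 41.6% (-1.26, SE 0.23, adjusted p = 0.00547).

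Plvap, the fenestral diaphragm gene, had 9.43, 19.5 and 2.68 CPM at 24 h of GLT with compound D, against 41.5, 70.1 and 31.3 CPM at 3 h. The groups did not overlap, and its fitted level at 24 h was 19.8% of that at 3 h (-2.34, SE 0.45, adjusted p = 0.00812).

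The differences of the 3 junction genes did not pass, although that of Cdh5 was close to that of Eng (-1.26, SE 0.23), which passed. Cdh5 had 14.3, 8.98 and 4.29 CPM at 24 h and 24.6, 14.5 and 21.9 CPM at 3 h (-1.21, SE 0.41, adjusted p = 0.0954). Pecam1 had 20.7, 33.1 and 4.32 CPM at 24 h and 25.5, 35.4 and 26.8 CPM at 3 h (-0.78, SE 0.44, adjusted p = 0.32). The Pecam1 values show that preparation 3 was far lower at 24 h while preparations 1 and 2 kept levels close to those at 3 h. Esam had 8.80, 10.5 and 6.46 CPM at 24 h and 11.8, 13.0 and 15.2 CPM at 3 h, with no overlap (-0.62, SE 0.24, adjusted p = 0.146). In all, 7 of the 9 genes did not overlap between the 2 times, as did 9.77% of all genes in this direction. The exceptions were Tie1 and Pecam1.

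**Figure D1:**
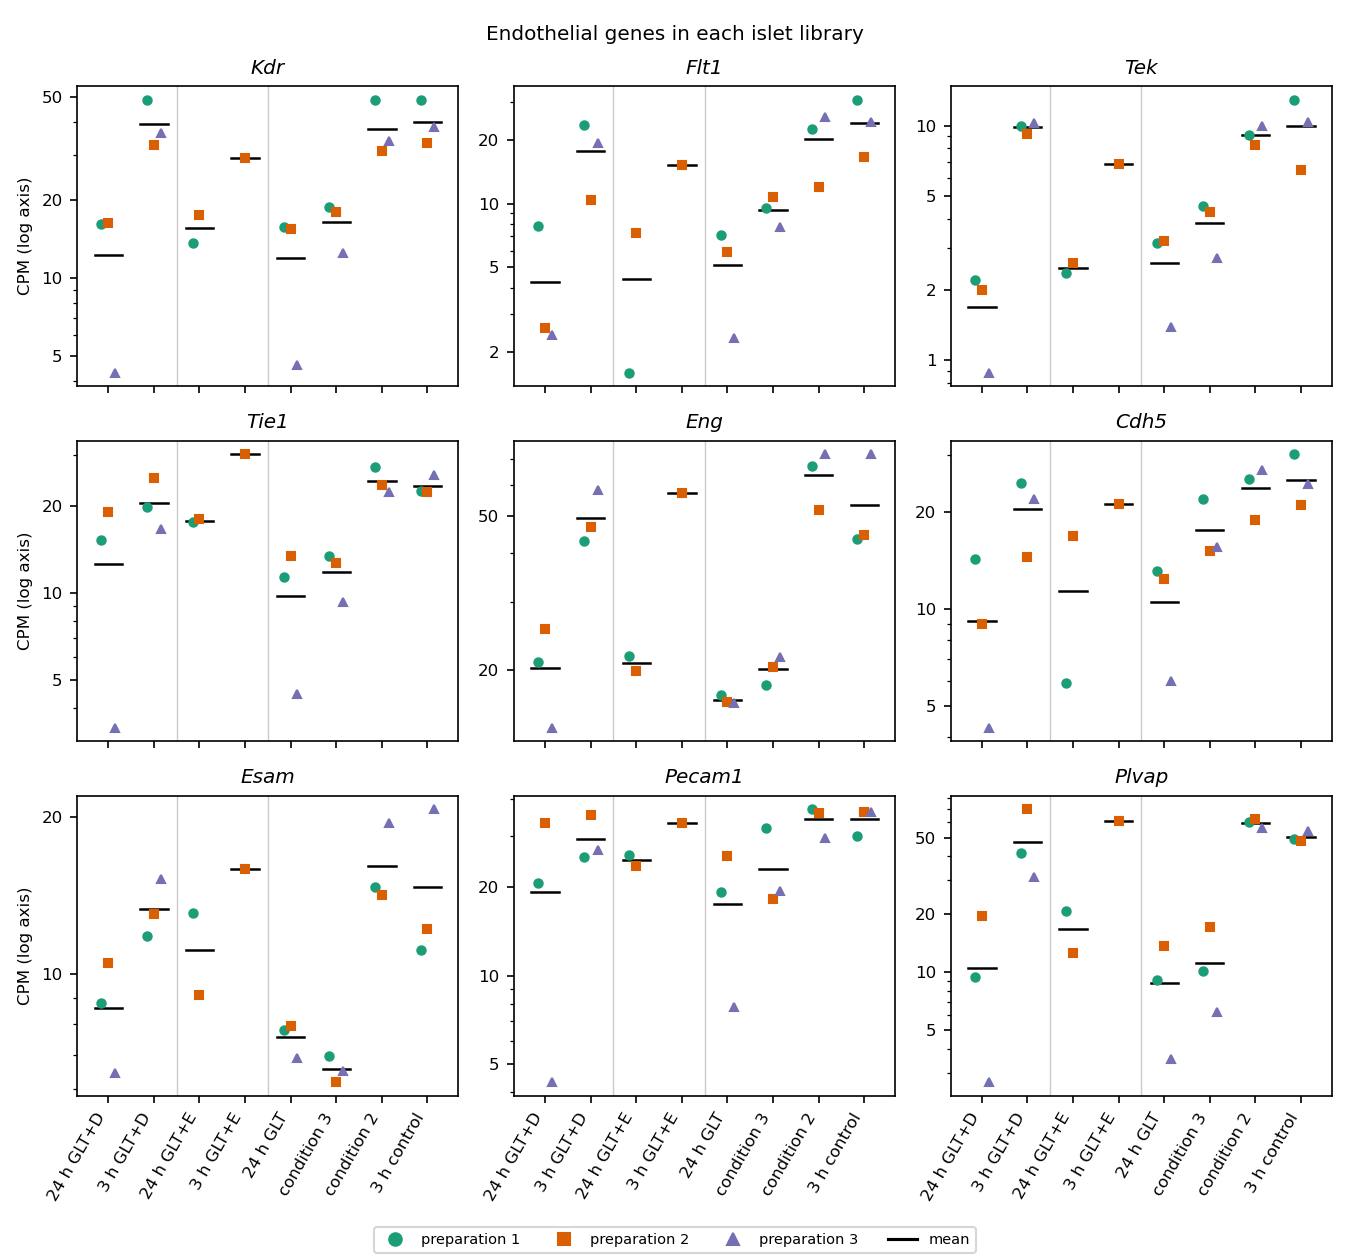
Level of each endothelial gene in every library, as CPM on a log axis, with the groups along the x axis (GLT+D and GLT+E are GLT with compounds D and E), the 3 preparations as colours and shapes, and a bar for the group mean. Conditions 2 and 1 sit with the 3 h groups with compounds D and E, and the libraries of preparation 3 at 24 h of GLT, with or without compound D, are the lowest of their groups for all 9 genes.

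Promoter sequences from RefSeq (build GRCr8, a later build than the rn5 used for the counts) matched 5 of the 9 genes by symbol: Kdr, Flt1, Tie1, Eng and Plvap. The 250 bases before the start are shown for the 4 of these whose fall at 24 h with compound D passed the test. Tie1, which did not pass, is not shown. Capitals mark AGGAAG or CGGAAG on either strand (CTTCCT or CTTCCG when read on the other), letters that hold the GGAA core bound by ETS family factors.
Plvap promoter, GRCr8 chr16:18231280-18231529, minus strand: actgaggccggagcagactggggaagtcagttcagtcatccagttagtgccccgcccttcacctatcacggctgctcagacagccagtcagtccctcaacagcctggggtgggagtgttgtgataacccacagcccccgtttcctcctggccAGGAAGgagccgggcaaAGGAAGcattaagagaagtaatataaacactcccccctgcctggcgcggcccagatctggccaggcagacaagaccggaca
Flt1 promoter, GRCr8 chr12:12333180-12333429, plus strand: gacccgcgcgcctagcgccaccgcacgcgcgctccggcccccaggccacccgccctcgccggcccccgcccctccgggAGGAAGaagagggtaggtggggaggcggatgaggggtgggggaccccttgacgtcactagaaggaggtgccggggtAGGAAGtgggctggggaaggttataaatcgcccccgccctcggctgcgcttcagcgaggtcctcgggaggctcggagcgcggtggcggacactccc
Kdr promoter, GRCr8 chr14:32571813-32572062, plus strand: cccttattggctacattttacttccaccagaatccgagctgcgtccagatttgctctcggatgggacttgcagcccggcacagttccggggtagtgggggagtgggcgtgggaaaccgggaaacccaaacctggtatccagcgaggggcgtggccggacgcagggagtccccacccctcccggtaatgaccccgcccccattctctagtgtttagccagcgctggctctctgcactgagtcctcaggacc
Eng promoter, GRCr8 chr3:36332029-36332278, plus strand: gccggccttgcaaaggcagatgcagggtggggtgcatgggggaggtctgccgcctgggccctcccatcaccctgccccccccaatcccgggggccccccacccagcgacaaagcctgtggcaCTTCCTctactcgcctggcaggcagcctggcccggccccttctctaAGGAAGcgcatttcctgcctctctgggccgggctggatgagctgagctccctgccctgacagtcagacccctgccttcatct
AGGAAG was found in the promoters of Flt1, Tie1, Eng and Plvap and not in that of Kdr. It was found in 29.5% of the 33469 promoter windows of the same length in the table, and CGGAAG, found in none of the 5, in 13.9%. The GATA motif AGATAA was found in none of the 5 and in 10.3% of all windows. The GC box GGGCGG was found in Kdr, Flt1, Tie1 and Plvap and in 30.5% of all windows, and the TATA motif TATAAA in Flt1 and Plvap and in 12.9%. A match is a run of letters and not a measured binding site.

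The size of the difference varied with the preparation. Within preparation 3, the log2 ratio of 24 h to 3 h of GLT with compound D had a median of -2.64 over the 9 genes and ran from -3.55 for Plvap to -1.24 for Esam. In preparation 1 the median was -1.04 (from -2.18 for Tek to -0.30 for Pecam1), and in preparation 2 it was -0.87 (from -2.22 for Tek to -0.10 for Pecam1). All 9 genes were lower at 24 h in each preparation. Tek and Plvap led in preparations 1 and 3, while Tek and Flt1 led in preparation 2. The share of Rn45s was 7.23%, 1.56% and 6.92% at 24 h and 7.88%, 1.37% and 5.64% at 3 h in preparations 1, 2 and 3. The insulin share was 11.7%, 43.3% and 10% at 24 h and 11.5%, 28.7% and 17.0% at 3 h. Their part in the result was not tested. Without preparation 1 none of the 9 genes passed, and 2 genes fell and 7 rose in the whole table. Without preparation 2 there were 6 of the 9, where 428 of all genes fell and 370 rose. Without preparation 3 there was 1 of the 9, where 42 of all genes fell and 28 rose. Without the 3 h library of preparation 3 with compound D, 3 of the 9 passed.

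**Figure D2:**
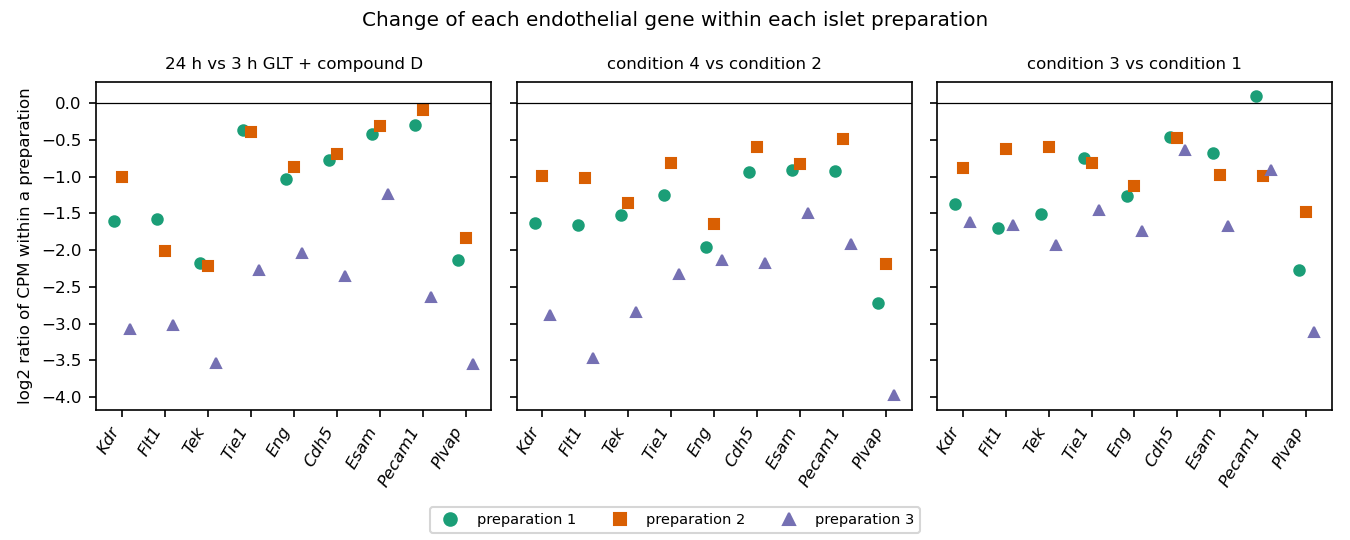
Log2 ratio of CPM between the 2 conditions of each comparison, within each of the 3 preparations (colours and shapes), for each endothelial gene along the x axis. The 24 h islets with compound D of preparation 3 lie lowest for every gene, and the same holds for condition 4 against condition 2, where the median was -2.32 in preparation 3, -1.52 in preparation 1 and -0.99 in preparation 2.

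For GLT without compound, the time comparison depends on the reading of the labels. By the sheet, condition 4 is 24 h GLT and condition 2 is 3 h GLT. By the records, the same contrast is 24 h GLT against 24 h control. In it 7 of the 9 genes fell, against 4.89% of all genes, and all 9 did not overlap, as did 17.2% of all genes in this direction. The median log2 change was -1.78, against -0.02 over all genes.

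Plvap was the most changed, with 9.12, 13.6 and 3.56 CPM in condition 4 and 60.2, 62.2 and 55.8 CPM in condition 2. Its level in condition 4 was 12.9% of that in condition 2 (-2.96, SE 0.46, adjusted p = 0.00199). Eng had 17.2, 16.5 and 16.4 CPM in condition 4, against 67.2, 51.7 and 72.1 CPM in condition 2 (-1.92, SE 0.23, adjusted p = 2.71e-04). The 3 Eng values of condition 4 were close to each other, and all far below those of condition 2. Tek had 3.17, 3.21 and 1.39 CPM in condition 4, against 9.08, 8.24 and 10 CPM in condition 2 (-1.88, SE 0.33, adjusted p = 0.00381). Kdr had 15.8, 15.5 and 4.59 CPM in condition 4, against 48.7, 30.9 and 33.9 CPM in condition 2 (-1.78, SE 0.37). Flt1 had 7.12, 5.91 and 2.31 CPM in condition 4, against 22.5, 12 and 25.7 CPM in condition 2 (-2.01, SE 0.56). For both receptor genes the third preparation was the lowest of condition 4. Tie1 had 11.4, 13.4 and 4.48 CPM in condition 4, against 27.2, 23.7 and 22.4 CPM in condition 2 (-1.44, SE 0.38). Esam had 7.80, 7.95 and 6.90 CPM in condition 4, against 14.7, 14.2 and 19.5 CPM in condition 2 (-1.08, SE 0.24). These 4 genes fell, with adjusted p from 0.0108 to 0.0394. Cdh5 (-1.23, SE 0.41, adjusted p = 0.0801) and Pecam1 (-1.07, SE 0.44, adjusted p = 0.153) did not pass. None of the 9 passed without preparation 1, and 2 without preparation 3. There were 3 without either library of preparation 3 in turn, and 4 without either library of preparation 1 in turn. Over all genes, 615 fell and 457 rose with all libraries. Without preparation 1, 15 of all genes fell and 6 rose, and without preparation 3, 59 fell and 24 rose. In condition 4 the summed level of the pericyte and stellate cell list was 552 to 964 CPM, against 486 to 565 CPM in condition 2, and that of the red cell list 0.791 to 1.14 CPM, against 9.09 to 12.9 CPM. Of 7 tested beta cell genes, 3 fell and 6 had negative values (median -0.94), and of 6 tested Schwann cell genes 1 fell (median -0.60). Their part in the result was not tested.

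By the records, 24 h against 3 h of GLT is condition 4 against condition 3, and none of the 9 genes passed, whereas 2.66% of all genes fell. There were 0 of the 9 with an unadjusted p under 0.05, against 21.1% of all genes, and 0 by DESeq2. The median log2 change was -0.52, against 0.00 over all genes. Flt1 was the lowest (-0.92, SE 0.55) and Esam was the single gene with a positive value (0.21, SE 0.24). Tek had 3.17, 3.21 and 1.39 CPM in condition 4 and 4.54, 4.27 and 2.73 CPM in condition 3 (-0.59, SE 0.32, adjusted p = 0.324).

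In control medium the 2 readings also differed. By the sheet, 24 h against 3 h control is condition 3 against condition 1 (by the records 3 h GLT against 3 h control). Plvap, Eng and Esam fell, against 0.437% of all genes, and the median of the 9 was -1.32, against -0.03 over all genes. Plvap had 10.1, 17.2 and 6.25 CPM in condition 3, against 49.0, 48.1 and 54.0 CPM in 3 h control (-2.37, SE 0.45, adjusted p = 0.0287). Eng had 18.3, 20.4 and 21.6 CPM in condition 3, against 43.7, 44.7 and 72.1 CPM in 3 h control (-1.40, SE 0.23, adjusted p = 0.0151). Esam had 6.96, 6.19 and 6.52 CPM in condition 3, against 11.1, 12.2 and 20.7 CPM in 3 h control (-1.14, SE 0.25, adjusted p = 0.0462). The groups did not overlap for 7 of the 9 genes, as for 6.74% of all genes in this direction. Kdr (-1.33, SE 0.36, adjusted p = 0.108), Tek (-1.39, SE 0.32, adjusted p = 0.0611), Flt1 (-1.32, SE 0.54) and Tie1 (-1.07, SE 0.37) did not pass, nor did Cdh5 (-0.53, SE 0.40) and Pecam1 (-0.60, SE 0.44). The count of 3 was 0 in a fit of these 6 libraries alone, and 0 without preparation 1, without preparation 3, without the 3 h control library of preparation 3 or without condition 3 of preparation 1 or 3. It was 1 without the 3 h control library of preparation 1, without condition 3 of preparation 2 or with a term for ambiguous reads added after seeing the data, and 5 by DESeq2. The calls over all genes dropped as well. In the fit of the 6 libraries alone 0 of all genes fell and 0 rose. Without preparation 1, 1 of all genes fell and 0 rose, and without preparation 3, 4 fell and 3 rose. By DESeq2, in contrast, 219 of all genes fell and 168 rose, against 55 and 32 by edgeR with all libraries. The pericyte and stellate cell list summed to 1200 to 1610 CPM in condition 3, against 478 to 683 CPM in 3 h control, and the red cell list to 1.08 to 1.33 CPM, against 6.88 to 8.63 CPM. Their part in the result was not tested.

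By the records, 24 h against 3 h control is condition 2 against condition 1, and none of the 9 genes passed, by edgeR or by DESeq2, with 0 at an unadjusted p under 0.05, against 13.2% of all genes. In this comparison 0.342% of all genes fell and 1.96% rose. The log2 changes ran from -0.23 (Flt1, SE 0.53) to 0.26 (Eng, SE 0.22). Plvap had 60.2, 62.2 and 55.8 CPM in condition 2 and 49.0, 48.1 and 54.0 CPM in 3 h control, so that every library of condition 2 was above every control library, as for 8.71% of all genes, but the difference did not pass (0.19, SE 0.42, adjusted p = 0.929). Tek had 9.08, 8.24 and 10 CPM in condition 2 and 12.9, 6.47 and 10.4 CPM in 3 h control. With library size as the only scaling, Plvap, Esam and Tie1 changed sign here.

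**Figure D3:**
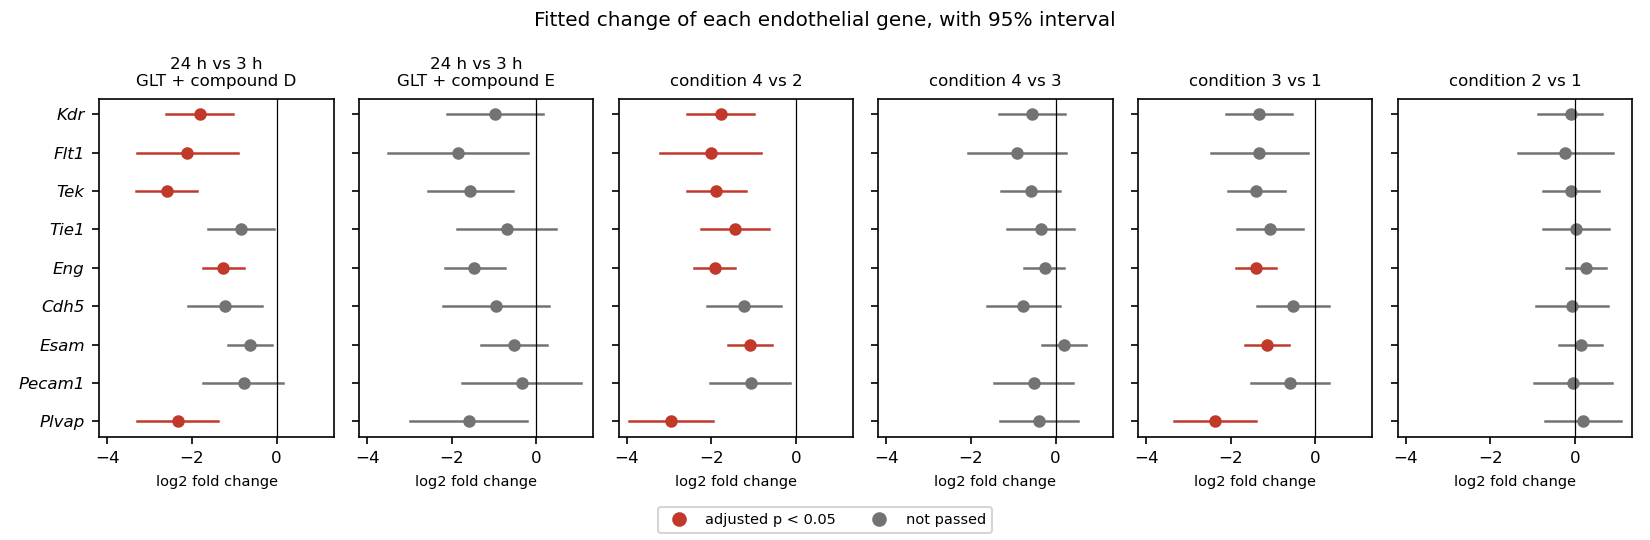
Fitted log2 fold change of each endothelial gene (points) with its 95% interval (lines) in 6 comparisons, the first named condition over the second, in red where the adjusted p was under 0.05. All intervals of condition 2 against condition 1 and of condition 4 against condition 3 include 0, while 5, 7 and 3 genes passed in 24 h against 3 h of GLT with compound D, condition 4 against 2 and condition 3 against 1.

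With compound E, 2 libraries at 24 h were set against 1 at 3 h, so the test assumes that the single library varies like the others. All 9 genes were lower at 24 h and none passed, where 0.215% of all genes fell. By DESeq2 the median log2 change of the 9 genes was -0.97, against 0 over all genes. When libraries or preparations were left out, all 9 stayed negative, with log2 changes from -4.02 (Flt1) to -0.16 (Pecam1). Without the 24 h library of preparation 2, 1 library of preparation 1 is set against 1 library of preparation 2. Each is then assumed to vary like the other groups. The values within preparation 2 had a median log2 ratio of -0.80 and ran from -2.27 for Plvap, with 12.6 CPM at 24 h and 60.6 CPM at 3 h, to -0.33 for Cdh5. Eng had 21.7 and 19.9 CPM at 24 h in preparations 1 and 2, and 57.2 CPM at 3 h in preparation 2 (-1.46, SE 0.33, adjusted p = 0.0939). Plvap had 20.9 and 12.6 CPM at 24 h in preparations 1 and 2, against 60.6 CPM at 3 h (-1.60, SE 0.65, adjusted p = 0.387). Tek had 2.36 and 2.60 CPM at 24 h, against 6.89 CPM at 3 h (-1.56, SE 0.47, adjusted p = 0.228). Both 24 h libraries lay below the 3 h library for all 9 genes, as for 34.2% of all genes. The 2 libraries at 24 h with compound E differed from each other for some of the genes. Flt1 had 1.59 CPM in preparation 1 and 7.24 CPM in preparation 2, and Cdh5 had 5.91 and 16.8 CPM.

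Summed over the 9 genes, the level was 236 to 257 CPM at 3 h of GLT with compound D, 269 CPM at 3 h of GLT with compound E, 241 to 306 CPM in 3 h control and 257 to 312 CPM in condition 2. It was 42.9 to 138 CPM at 24 h of GLT with compound D, 123 to 127 CPM at 24 h with compound E, 53.4 to 114 CPM at 24 h of GLT and 102 to 135 CPM in condition 3. Condition 2 therefore lay in the range of the undisputed 3 h libraries or just above it, and condition 3 in the range of the undisputed 24 h libraries. All undisputed 24 h libraries were in GLT medium, and no undisputed library was 24 h control or 3 h GLT without compound. Culture time and GLT without compound therefore cannot be told apart by these ranges. These levels are a description and do not settle which label is right.

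At a single time point, 3 treatment comparisons without a disputed library were made, and none of the 9 genes passed in any of the 3. Against 24 h GLT, compound D moved none of the 9 past the test, while 4.09% of all genes passed, and their log2 changes ran from -0.63 (Tek, SE 0.33, adjusted p = 0.377) to 0.31 (Tie1, SE 0.37). Tek was lower with compound D in each preparation, with 2.19, 1.99 and 0.885 CPM against 3.17, 3.21 and 1.39 CPM. Against 24 h GLT, compound E moved none of the 9 either, and 0 of all genes passed (812 genes, or 6.46%, had an unadjusted p under 0.05, Esam of the 9 among them, and 0 passed DESeq2). Plvap had the largest value (0.85, SE 0.49). At 3 h, GLT with compound D against control moved none of the 9, with log2 changes from -0.44 (Flt1, SE 0.53) to 0.00 (Tek, SE 0.31), and 0.103% of all genes passed. These p-values do not show that the groups are alike: the 95% interval for Flt1 in the last comparison ran from -1.56 to 0.69.

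The change over time was also compared between treatments. The GLT change minus the control change does not depend on the reading of conditions 2 and 3. None of the 9 passed, against 0.0716% of all genes, and 8 were negative, with a median of -0.49. There were 0 of the 9 with an unadjusted p under 0.05, against 8.35% of all genes. The change over time with compound D minus that without it depended on the reading. By the records (condition 4 minus condition 3 as the GLT change) Tek alone of the 9 passed (-2.02, SE 0.46, adjusted p = 0.0164), a share near the 7.75% of all genes that did. None of the 9 passed without preparation 1, without preparation 3 or without the 24 h GLT library of preparation 2. Of all genes, 9 passed with a negative and 3 with a positive difference without preparation 1, and 150 and 127 without preparation 3. By the sheet (condition 4 minus condition 2) Tek did not pass (-0.73, SE 0.46, adjusted p = 0.743), nor did the other 8, and 0.0318% of all genes passed.

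Other endothelial genes were read from lists. Of 35 tested genes of the list of surface and junction genes, 6 fell and 0 rose at 24 h against 3 h of GLT with compound D, with a median of -0.91, where 3.05% of all genes fell. Aplnr, the apelin receptor gene (-2.49, SE 0.42, adjusted p = 0.00359), Procr, the endothelial protein C receptor gene (-1.54, SE 0.34), Gpr116, an adhesion receptor gene (-1.01, SE 0.25), and Jam2, a junction adhesion gene (-1.04, SE 0.26), were the first by adjusted p. In condition 4 against condition 2, 10 of the 35 fell and 0 rose (median -0.94), where 4.89% of all genes fell. In condition 3 against condition 1, where 0.437% of all genes fell, there was 1, Procr (-1.61, SE 0.33, adjusted p = 0.0394). In condition 2 against condition 1, 0 fell and 1 rose, where 1.96% of all genes rose. With compound D, 27 of the 35 had negative values and the other 8 positive or zero ones.

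Among 21 tested endothelial transcription factor genes, 2 fell and 0 rose with compound D (median -0.45), where 3.05% of all genes fell. Erg, an ETS factor gene of endothelial identity, had a mean of 2.29 CPM at 24 h (SD 1.52) and 7.86 CPM at 3 h (SD 3.24, n = 3 each; -1.81, SE 0.48, adjusted p = 0.0368). Klf4, which is also an immediate early gene of many cell types, fell too (-2.47, SE 0.38, adjusted p = 0.0018). In condition 4 against condition 2, 7 of the 21 fell, Erg (-2.12, SE 0.48) and Klf4 (-2.88, SE 0.37) among them, against 4.89% of all genes, and in condition 3 against condition 1 none did, against 0.437% of all genes.

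None of 10 tested genes of the list of VEGF and angiopoietin ligands and co-receptors passed at 24 h against 3 h of GLT with compound D, where 3.05% of all genes fell. Of the 10, 7 had negative values, and the median was -0.38. An unadjusted p under 0.05 was found for 4 of the 10, against 22.2% of all genes in either direction. Vegfb, with a positive value, was among the 4. Vegfa, the islet's main ligand for Kdr and Flt1, had a mean of 1010 CPM at 24 h (SD 389) and 917 CPM at 3 h (SD 149), and its change did not pass (0.12, SE 0.22, adjusted p = 0.79). Pgf, placental growth factor, a ligand of Flt1, had 1.42 CPM at 24 h (SD 0.35) and 3.34 CPM at 3 h (SD 1.45; -1.09, SE 0.36, adjusted p = 0.0871). Vegfb (0.52, SE 0.24), Figf, which encodes VEGF-D (1.28, SE 0.60), Vegfc (-0.32, SE 0.33), Angpt1 (-0.30, SE 0.72) and Angpt2 (-0.44, SE 0.37) did not pass, nor did Flt4, the VEGFR-3 gene (-1.09, SE 0.46), and the neuropilin co-receptor genes Nrp1 (-0.70, SE 0.43) and Nrp2 (-1.25, SE 0.48). Angpt4 was below the filter on low counts. In condition 4 against condition 2, Angpt2, an angiopoietin gene made by endothelial cells, was the 1 gene of the list that fell (-1.34, SE 0.38, adjusted p = 0.0406).

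Markers of the other cells in an islet moved in several ways in the comparison with compound D. Of all genes tested, 3.05% fell and 3.07% rose in it, so that 6.11% passed. Of 15 pericyte and stellate cell genes, the matrix genes Dcn (1.13, SE 0.24) and Lum (1.47, SE 0.37) rose and the pericyte proteoglycan gene Cspg4 fell (-0.86, SE 0.23). The summed level of that list was 397 to 927 CPM at 24 h and 423 to 561 CPM at 3 h. Of 4 tested red cell genes, the hemoglobin genes Hba-a2 (-3.25, SE 0.52) and Hbb (-2.95, SE 0.73) fell. The list sum was 1.35 to 1.60 CPM at 24 h and 3.70 to 12.9 CPM at 3 h. None of 15 macrophage and leukocyte, 12 acinar, 6 Schwann cell or 7 alpha, delta and PP cell genes passed. Among the abundant genes of these lists were Cd74 (0.82, SE 0.43) and C1qa (0.44, SE 0.38) of immune cells, Bhlha15 (0.02, SE 0.19) of acinar cells, Ngfr (0.10, SE 0.33) of Schwann cells, and Gcg (0.48, SE 0.23) and Ppy (0.14, SE 0.59) of endocrine cells. Of 5 tested duct genes only Spp1 fell (-1.85, SE 0.38), and of 7 tested beta cell genes only Iapp, the amylin gene (-1.59, SE 0.19). Their part in the endothelial result was not tested.

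**Figure D4:**
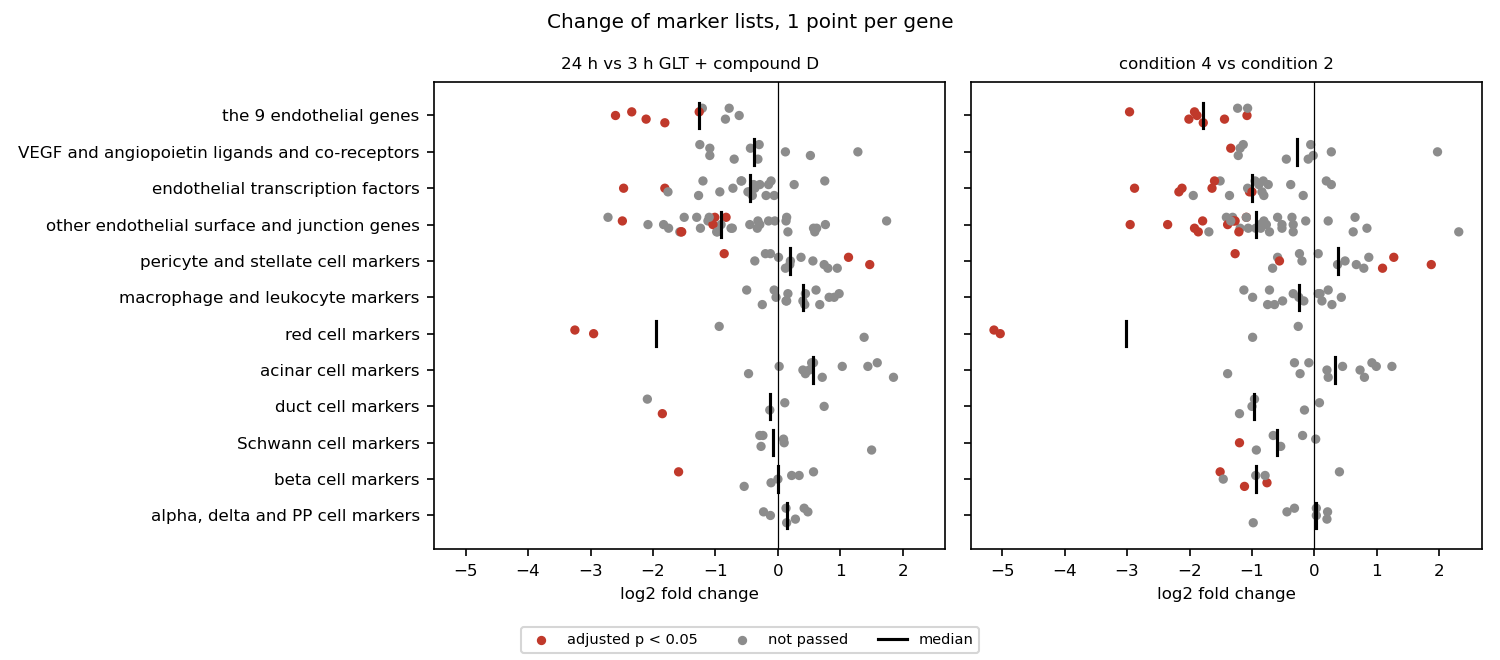
Log2 fold change of each gene (points) by marker list, with the list median as a bar, at 24 h against 3 h of GLT with compound D (left) and in condition 4 against condition 2 (right), in red where the adjusted p was under 0.05. The 9 endothelial genes lie on the negative side in both, with medians of -1.26 and -1.78, while pericyte and stellate cell genes that passed lie on both sides.

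The 9 genes shared a profile over the 21 libraries. After the mean of each preparation was subtracted, the correlation of each gene with the mean of the other 8 ran from 0.82 for Esam to 0.978 for Kdr (Pearson, a description over libraries that share preparations and scaling). The 8 genes outside the set with the most similar profile were Prdm1 (0.97), F2rl1 (0.965), Erg (0.957), Sema7a (0.955), Eln (0.954), S1pr1 (0.951), Hsbp1l1 (0.95) and Col13a1 (0.948). Prdm1 encodes a transcriptional repressor, F2rl1 a protease-activated receptor, Eln elastin and S1pr1 a sphingosine phosphate receptor. Of the 40 most similar genes, 7 came from the 56 tested genes of the endothelial surface and transcription factor lists. Cspg4 of the pericyte and stellate cell list (0.948) and Iapp of the beta cell list (0.915) were also among the 40. The profile was therefore not confined to endothelial genes.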

How the data were processed

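RNA of whole islets was sequenced as paired reads of 100 bases, per the labels' protocols. Per the same protocols the authors aligned them with TopHat2 2.0.3 together with Bowtie2 2.0.0 against the rn5 rat genome and obtained counts per gene from HT-seq, and they deposited the raw counts of 21 libraries. The annotation and the strand setting of the counting are not given in the sources used here, so overlapping and antisense genes cannot be told apart. No test or library size includes the 5 entries that name no gene, among which reads outside genes were 10.3% to 18.7%, ambiguous reads 0.161% to 2.32% and reads with more than 1 alignment 4.92% to 23.4% of all entries, genes included.

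Genes were filtered with filterByExpr (minimum count 10) and tested with the quasi-likelihood test of edgeR 4.0.16 in R 4.3.3 over all 21 libraries, with TMM scaling, a term per condition and a term per preparation, and Benjamini-Hochberg adjustment over 12576 genes at 0.05; all adjusted p-values come from this fit unless DESeq2 1.42.0 is named. Each preparation was split over the groups, so the preparation pairs the libraries. Residuals around the condition means correlated at 0.209 on average between libraries of the same preparation. Within preparations 1, 2 and 3 the averages were 0.0716, 0.186 and 0.433. Residuals of different preparations correlated at -0.16, part of which follows from subtracting the condition means. The p-values rest on the spread left between libraries after the condition and preparation terms, estimated over all 21 libraries. That spread includes how group differences vary between the 3 preparations of pooled rats. It leaves out differences in level between the preparations. Fitted log2 changes are given with their SE, and CPM per library are TMM-scaled. The floor of 3 counts covers counting error only. Alternatives were library size only, no filter on low counts, DESeq2, no replicate block, the conditions compared alone, the sheet's labels and leaving out libraries or preparations. A term for ambiguous reads and a fit of the 15 undisputed libraries were chosen after seeing the data.

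The endothelial genes and the marker lists were chosen with earlier results of these data known. Genes were named by rule: every endothelial gene measured, up to 4 genes per list that passed with compound D by smallest adjusted p (the 2 most abundant where none passed), the ligand list in full, and the 8 genes of most similar profile. Some genes that this rule names are not reported here.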

Additional observations from a re-analysis of the deposited data

Results flagged for a closer look

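The change of Tek over time passed a test of the difference between treatments, as did 7.75% of all genes. It was 1 of the 9 endothelial genes, a share near that of all genes. Under the records' labels, its log2 change at 24 h against 3 h of GLT with compound D minus that of GLT alone was -2.02 (SE 0.46, adjusted p = 0.0164 by edgeR's quasi-likelihood test). The change with compound D was -2.60, and that of condition 4 against condition 3 was -0.59. Under the labels of the deposited sheet the same difference was -0.73 (SE 0.46, adjusted p = 0.743). Under the records' labels, none of the 9 passed without preparation 1, without preparation 3 or without the 24 h GLT library of preparation 2. Of all genes, 9 passed with a negative and 3 with a positive difference without preparation 1, and 150 and 127 without preparation 3.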

How the results depend on the processing

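The direction of the 9 genes at 24 h against 3 h of GLT with compound D was negative in all 32 settings, with a median from -1.60 to -0.95. Many of these settings left out a library of another group, which can change this comparison only a little. In the 9 settings that left out a preparation or a library of the 2 groups compared, all 9 genes were negative too. The count of 5 that passed was 3 with no replicate block, where Kdr (adjusted p = 0.0532) and Flt1 (0.0602) were lost, and 0 to 6 when libraries or preparations were left out. With no replicate block, 196 of all genes fell and 186 rose, against 383 and 386 with it. Under the sheet's labels the counts were 3 in place of 0 for 24 h against 3 h control, 7 in place of 0 for 24 h against 3 h GLT, 0 in place of 3 for 3 h GLT against control, 0 in place of 7 for 24 h GLT against 24 h control, and 0 in place of 1 for the compound D difference in time change. Leaving out libraries gave 0 to 3 for 3 h GLT against control, 0 to 8 for 24 h GLT against 24 h control and 0 to 3 for the difference in time change. The count of 8 was found without preparation 2, where 656 of all genes fell and 566 rose. Such counts are not given for compound E, where a group held 1 library or could be left with 1. For 3 h GLT against control the count of 3 was 1 with no replicate block, 0 with only the conditions compared, 5 by DESeq2 and 1 with the ambiguous-read term. Of all genes, 14 fell and 3 rose there with no replicate block, and 0 fell and 0 rose with only the conditions compared. By DESeq2, 219 of all genes fell and 168 rose there. With compound E over time, the median log2 change of the 9 genes by DESeq2 was -0.97, against 0 over all genes. The difference in time change had 3 with library size only, 2 with only the conditions compared, 3 by DESeq2 and 2 without the compound E library of preparation 1. Of all genes, 246 passed with a negative and 115 with a positive difference with library size only. There were 549 and 566 with only the conditions compared, and 816 and 759 by DESeq2. The cause was not tested.

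In condition 2 against condition 1, where no gene passed, signs turned. With library size only, Esam was -0.09, Plvap -0.04 and Tie1 -0.22, where that scaling put the median of all genes at -0.29. Leaving out libraries gave -0.36 to 0.10 for Cdh5, -0.03 to 0.46 for Esam, -0.66 to 0.04 for Flt1, -0.33 to 0.19 for Kdr, -0.24 to 0.36 for Pecam1, -0.18 to 0.73 for Plvap, -0.38 to 0.13 for Tek and -0.22 to 0.45 for Tie1. The fit of only the conditions compared could not be made for compound E over time, and without preparation 2 that comparison has no value. Fitted with the 15 undisputed libraries alone, Flt1 no longer passed with compound D (adjusted p = 0.0909).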
